A study of Mus musculus with 24 samples.

Results

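The transcripts described here are 10 genes of squamous keratinocytes (Krt5, Krt14, Krt6a, Krt13, Krt4, Lypd3, Sfn, Trp63, Dsp and Perp), read in RNA sequencing libraries of sorted colon myeloid cells. They were chosen by name, because Krt5 and Lypd3 were known to vary widely between monocyte libraries of the colon lamina propria (LP). All 10 symbols were found among the 17301 genes of the expression table, by their Ensembl identifiers without the version. Values are log2 RPKM, reads per kilobase of gene, scaled to library size, given here as RPKM.

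The 24 libraries made 8 groups of 3. F4/80hi MHCIIhi macrophages (LP_MaHi), F4/80hi MHCIIlow macrophages (LP_MaLo), Ly6Chi MHCII-negative monocytes (LP_Mo) and Ly6Ghi neutrophils (LP_Ne) were sorted from the LP of wild-type C57BL/6J mice, labelled as strain C57/BL and as healthy. The same 4 populations (Tu_MaHi, Tu_MaLo, Tu_Mo and Tu_Ne) were sorted from colon tumours of mice labelled APC/Min, which carry the Apc Min mutation in the germline and were given dextran sodium sulphate (DSS) to speed tumour growth. The study's methods describe DSS also for control mice, and whether the LP mice of these libraries received it was not settled from the sources used here. Mice of both sexes were 3 to 4 months old when killed in the DSS protocol, and each library came from tissue pooled from 13 to 15 of them. The roman numeral of a library, called a donor in the labels, names its pool within a tissue. The LP was stripped of epithelium with EDTA before digestion, whereas tumours were minced and digested with no such step, so tissue and preparation cannot be told apart.

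Squamous epithelium is a layered sheet in which basal cells divide and their daughters differentiate as they move up. Basal cells make the keratin pair Krt5 and Krt14 under the transcription factor p63 (Trp63), and upper layers exchange them for other keratins, Krt13 and Krt4 in moist linings such as the oesophagus and Krt1 and Krt10 in skin. The colon is lined instead by a single layer of columnar cells, which use Krt8, Krt18, Krt19 and Krt20, and squamous epithelium begins at the anal canal. Krt6a is induced in stressed or fast-growing squamous epithelium. Lypd3 is a surface protein of suprabasal cells, Dsp (desmoplakin) ties keratin filaments to desmosomes, Perp is a desmosomal membrane protein and p53 target, and Sfn (stratifin, 14-3-3 sigma) is a p53 target of epithelial cells.

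Keratin genes arose by duplication, and a read of 51 bases can match more than 1 of them. Coordinates are those of GRCm38 in the GENCODE M21 annotation. Krt5 (chr15:101707070-101712898), Krt6a (chr15:101689910-101694307) and Krt4 (chr15:101918535-101924735) lie in the type II keratin cluster, and Krt14 (chr11:100203162-100207548) and Krt13 (chr11:100117327-100121566) in the type I cluster, all on the minus strand. The coding sequences of Krt6a and Krt6b were 97.8% identical. Of the 51-base stretches of Krt6a transcripts, 57.0% also occurred in other genes, 40.0% in Krt6b. The first stretch of one read length that Krt6a shares with Krt6b is shown with its aligned counterpart in Krt5, in which capitals mark the 22 bases that differ.
Krt6a: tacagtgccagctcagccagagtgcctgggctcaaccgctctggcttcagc
Krt6b: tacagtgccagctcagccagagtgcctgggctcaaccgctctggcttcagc
Krt5: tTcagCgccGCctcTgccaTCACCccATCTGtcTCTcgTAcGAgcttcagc
All 3 stretches are coding sequence of exon 1 on the minus strand, at chr15:101694153-101694203, chr15:101680128-101680178 and chr15:101712712-101712762. A read of the first stretch alone does not tell Krt6a from Krt6b, and whether its mate did was not examined. The Krt5 counterpart is distinct here, but Krt5 shared 12.1% of its stretches with other genes, 6.89% with Krt6a. Krt14 shared 13.4% of its stretches with other genes, 10.7% with Krt16. A stretch shared with Krt16 is shown with the Krt17 counterpart, in which capitals mark 9 differences.
Krt14: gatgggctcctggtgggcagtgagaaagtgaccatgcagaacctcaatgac
Krt16: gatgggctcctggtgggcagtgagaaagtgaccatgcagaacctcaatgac
Krt17: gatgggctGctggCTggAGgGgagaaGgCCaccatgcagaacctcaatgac
These stretches are exon 1 coding sequence on the minus strand, at chr11:100207066-100207116, chr11:100248525-100248575 and chr11:100260687-100260737. Krt13, Krt4, Trp63 (chr16:25683763-25892102) and Perp (chr10:18845020-18857073) shared no stretch with another gene and their exons overlapped none. Sfn (chr4:133600556-133602168) shared 14.6% of its stretches with other genes, 11.52% with Gm7850 alone. Exons of other genes overlapped 5.87% of Krt5, 24.8% of Krt6a, 13.6% of Lypd3 (chr7:24636550-24641118) and 5.17% of Dsp (chr13:38151294-38198577), and the library kit does not mark strand. Values of Krt6a and, in part, of Krt14, Krt5, Lypd3, Sfn and Dsp are therefore uncertain by the share of reads that fall in those stretches.

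Total reads ranged from 12.8 to 41.7 M per library. Genes of the gates followed the sort in part. S100a8, a neutrophil calgranulin, was at 4493 to 13505 RPKM in the 6 neutrophil libraries and at 60.2 RPKM or less elsewhere. The monocyte gene Ly6c2 was at 43.2, 87.0 and 80.6 RPKM in LP_Mo III, IV and V and at 0.539 RPKM or less in macrophages. Neutrophils held it at 42.6 to 131 RPKM, so it did not set monocytes apart from them. The MHCII gene H2-Ab1 was at 389 to 496 RPKM in the MHCII-negative LP_Mo, against 102 to 715 RPKM in LP_MaLo. LP_Mo III and LP_Mo V stood apart from all other libraries in the squamous genes, and LP_Mo IV did not, which is described next.

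Of the 3 LP monocyte libraries, 2 held nearly all of the squamous signal. The summed RPKM of the 10 transcripts was 3138 in LP_Mo III and 1408 in LP_Mo V. It was 14.4 in LP_Mo IV, 46.7 in LP_MaHi III, and between 0.146 and 37.3 in the other 20 libraries. The 10 genes took 0.759% of all reads of LP_Mo III (95% Wilson interval 0.756 to 0.763) and 0.325% of LP_Mo V (0.323 to 0.327), against 0.0029% (0.0027 to 0.0030) of LP_Mo IV. Reads without molecular identifiers are not independent molecules, so these intervals cover counting error only. Since LP monocyte libraries led to the choice of the genes, their values are given as a description and were not tested.

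**Figure D1:**
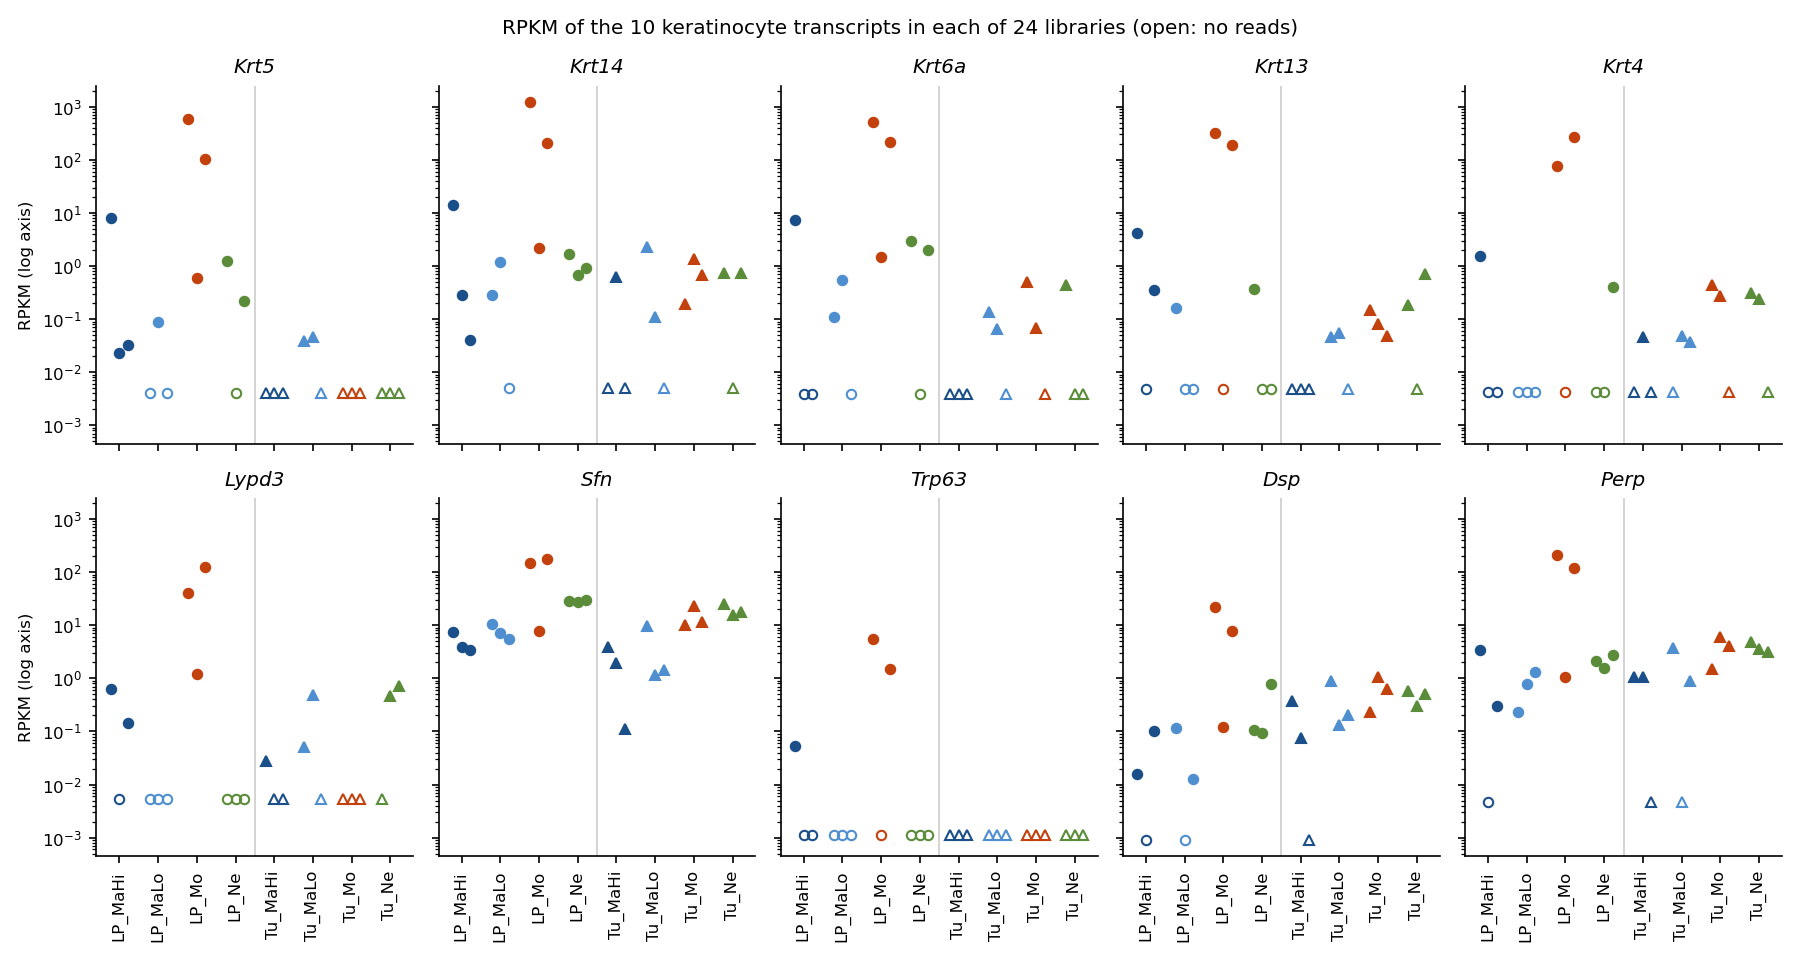
RPKM of each of the 10 transcripts (log axis) in the 24 libraries, grouped along the horizontal axis, with circles for LP, triangles for tumour and open symbols for libraries with no reads, drawn at the small offset of the deposited values. LP_Mo III and LP_Mo V are the 2 highest points in every panel, and Sfn is the gene with reads in all 24 libraries.

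The basal keratins were the most abundant in LP_Mo III. Krt14 was at 1211, 2.20 and 209 RPKM in LP_Mo III, IV and V. Krt5, its partner, was at 582, 0.605 and 102 RPKM in the same order, from 32067, 58 and 8117 reads. Both genes were far higher in LP_Mo III than in LP_Mo IV, 551 times for Krt14 and 962 times for Krt5. Trp63, the regulator of the basal layer, was at 5.62 RPKM (1186 reads) in LP_Mo III and 1.49 RPKM (453 reads) in LP_Mo V, and had 0 reads in LP_Mo IV, which allows a level of up to 0.0092 RPKM. LP_Mo IV thus had few reads of the basal keratins and none of the basal transcription factor.

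Keratins of the upper layers were also high in LP_Mo III and V, in other proportions. Krt6a was at 519, 1.45 and 215 RPKM in LP_Mo III, IV and V. Krt13 was at 323 RPKM in LP_Mo III and 186 RPKM in LP_Mo V, at least 7636-fold and 4406-fold above the level that 0 reads allow in LP_Mo IV (0.0423 RPKM, the worth of 3 reads). Krt4, the partner of Krt13, was at 75.5 RPKM in LP_Mo III and 263 RPKM in LP_Mo V, with 0 reads in LP_Mo IV. Krt4 was thus higher in LP_Mo V, opposite to Krt5 and Krt14.

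Among the genes of cell surface and adhesion, Lypd3 was at 40.4, 1.22 and 123 RPKM in LP_Mo III, IV and V. Perp was at 209, 1.08 and 120 RPKM. Dsp was at 21.6, 0.119 and 7.93 RPKM. Sfn was at 151, 7.72 and 180 RPKM, so that LP_Mo IV held 548 reads of it, more than of any other member. For 8 of the 10 genes both LP_Mo III and V exceeded LP_Mo IV more than 10 times in RPKM + 1, where 0.318% of all 12878 genes tested did so, and the genes outside that count were Trp63 and Dsp. Because the genes were chosen from this contrast, nothing is read from the count.

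The 2 libraries differed in the mixture of squamous genes. The ratio of LP_Mo III to LP_Mo V was 5.79 for Krt14, 5.71 for Krt5, 3.78 for Trp63 and 2.72 for Dsp. It was 2.41 for Krt6a, 1.74 for Perp, 1.73 for Krt13 and 0.835 for Sfn, and fell to 0.330 for Lypd3 and 0.287 for Krt4. As a share of the summed RPKM of the 10 genes, Krt5 and Krt14 made 18.5% and 38.6% in LP_Mo III but 7.24% and 14.9% in LP_Mo V, whereas Krt4 and Lypd3 made 2.41% and 1.29% in LP_Mo III and 18.7% and 8.71% in LP_Mo V. The basal genes Krt5, Krt14 and Trp63 thus had ratios above 3. Of the genes of upper layers, Krt4 and Lypd3 had ratios under 1, whereas Krt13 and Krt6a, at 1.73 and 2.41, were higher in LP_Mo III. With 1 library of each mixture, there is no replicate check of this difference.

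**Figure D2:**
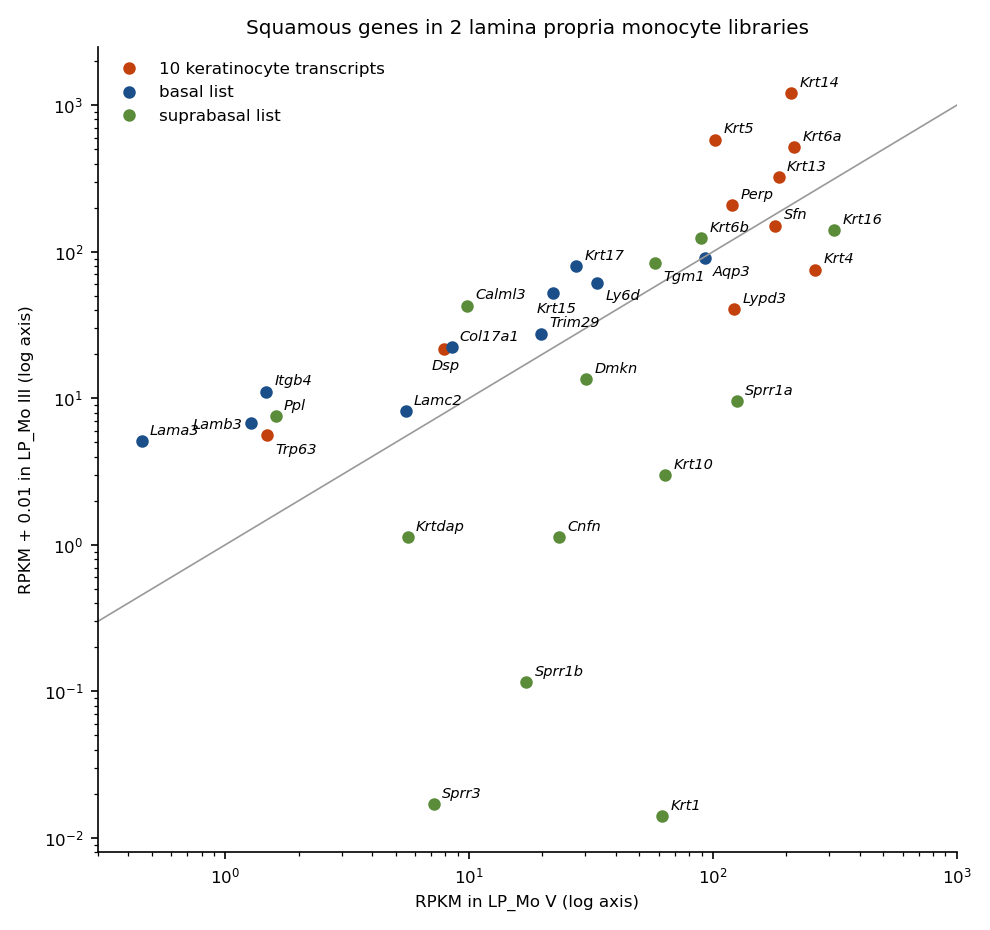
RPKM in LP_Mo III (with 0.01 added) against LP_Mo V, both on log axes, of the 10 transcripts and of genes of a basal and a suprabasal squamous list that reached 5 RPKM in either library, 1 basal gene left out, with the line of equal levels. Krt5, Krt14, Krt6a and Krt13 lie above the line and Krt4 and Lypd3 below it, and Krt1 and Sprr3 had no reads in LP_Mo III.

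The order differed between the basal and suprabasal lists, with exceptions in both. Of 13 basal genes in the table, 11 were higher in LP_Mo III than in LP_Mo V and 2 (Aqp3 and Cdh3) lower, while of 18 suprabasal genes 13 were lower in LP_Mo III and 5 (Krt6b, Tgm1, Calml3, Evpl and Ppl) higher. The share of all genes that were higher in LP_Mo III than in LP_Mo V was not computed. Some list genes were also present in LP_Mo IV, as Tgm1 was at 21.6 RPKM and Dmkn at 12.7 RPKM there. The examples that follow were picked after their values were seen. Krt15, a basal keratin, was at 52.7 RPKM in LP_Mo III and 22.2 RPKM in LP_Mo V. The collagen gene Col17a1, also from the basal list, was at 22.3 and 8.48 RPKM. Krt1, the early keratin of skin differentiation, had 0 reads in LP_Mo III and 5523 reads (62.1 RPKM) in LP_Mo V, and its partner Krt10 was at 2.98 and 63.7 RPKM. Sprr1a, a protein of the cornified envelope, was at 9.58 RPKM in LP_Mo III and 125 RPKM in LP_Mo V. Of the exceptions, Aqp3 was at 91.2 and 92.7 RPKM in LP_Mo III and V, Tgm1 at 84.5 and 58.0 RPKM and Calml3 at 42.8 and 9.80 RPKM. The 13-gene basal list summed to 458, 5.42 and 256 RPKM in LP_Mo III, IV and V, and the suprabasal list to 431, 36.4 and 821 RPKM.

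Krt6b and Krt16, which share stretches with Krt6a and Krt14, were also high in both libraries. Krt6b was at 123 RPKM in LP_Mo III and 89.3 RPKM in LP_Mo V, and Krt16, a keratin of stressed epithelium, at 140 and 314 RPKM. Krt6b was higher in LP_Mo III, as Krt6a was, and Krt16 was higher in LP_Mo V, opposite to Krt14.

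Markers of other cell types were summed in the same libraries. The 10 genes of the myeloid list summed to 1578, 1918 and 1859 RPKM in LP_Mo III, IV and V. This sum was thus similar in libraries with and without squamous transcripts, but its genes differed. Ly6c2 was at 43.2, 87.0 and 80.6 RPKM and Csf1r at 359, 460 and 431 RPKM, lowest in LP_Mo III. H2-Ab1 was at 406, 389 and 496 RPKM, lowest in LP_Mo IV. The 20 genes of the colon epithelial list in the table, of which 18 were tested, summed to 308, 33.9 and 161 RPKM. In LP_Mo III, 4 genes (Krt19, Krt20, Cldn4 and Epcam) made 81.1% of the sum. Of the columnar keratins, Krt19 and Krt20 were among these 4, whereas Krt8 and Krt18 were lower in LP_Mo III than in LP_Mo IV. Krt8 was at 2.65, 5.85 and 10.7 RPKM and Krt18 at 2.16, 3.22 and 4.01 RPKM in LP_Mo III, IV and V. Of the 20 colon epithelial genes in the table, 16, 14 and 18 exceeded 3 reads in LP_Mo III, IV and V. The goblet cell mucin Muc2, a defining gene of colonic epithelium, was at 0.130 and 4.56 RPKM in LP_Mo III and IV, with no reads in LP_Mo V. The fibroblast list summed to 15.2 to 33.2 RPKM and the T cell list to 0.907 to 2.09 RPKM in the 3 libraries. The B and plasma cell list differed more, at 157, 179 and 575 RPKM in LP_Mo III, IV and V. In bulk libraries a smaller number of cells of a type and less RNA per cell cannot be told apart, and the part that other cells had in the squamous signal was not tested.

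**Figure D3:**
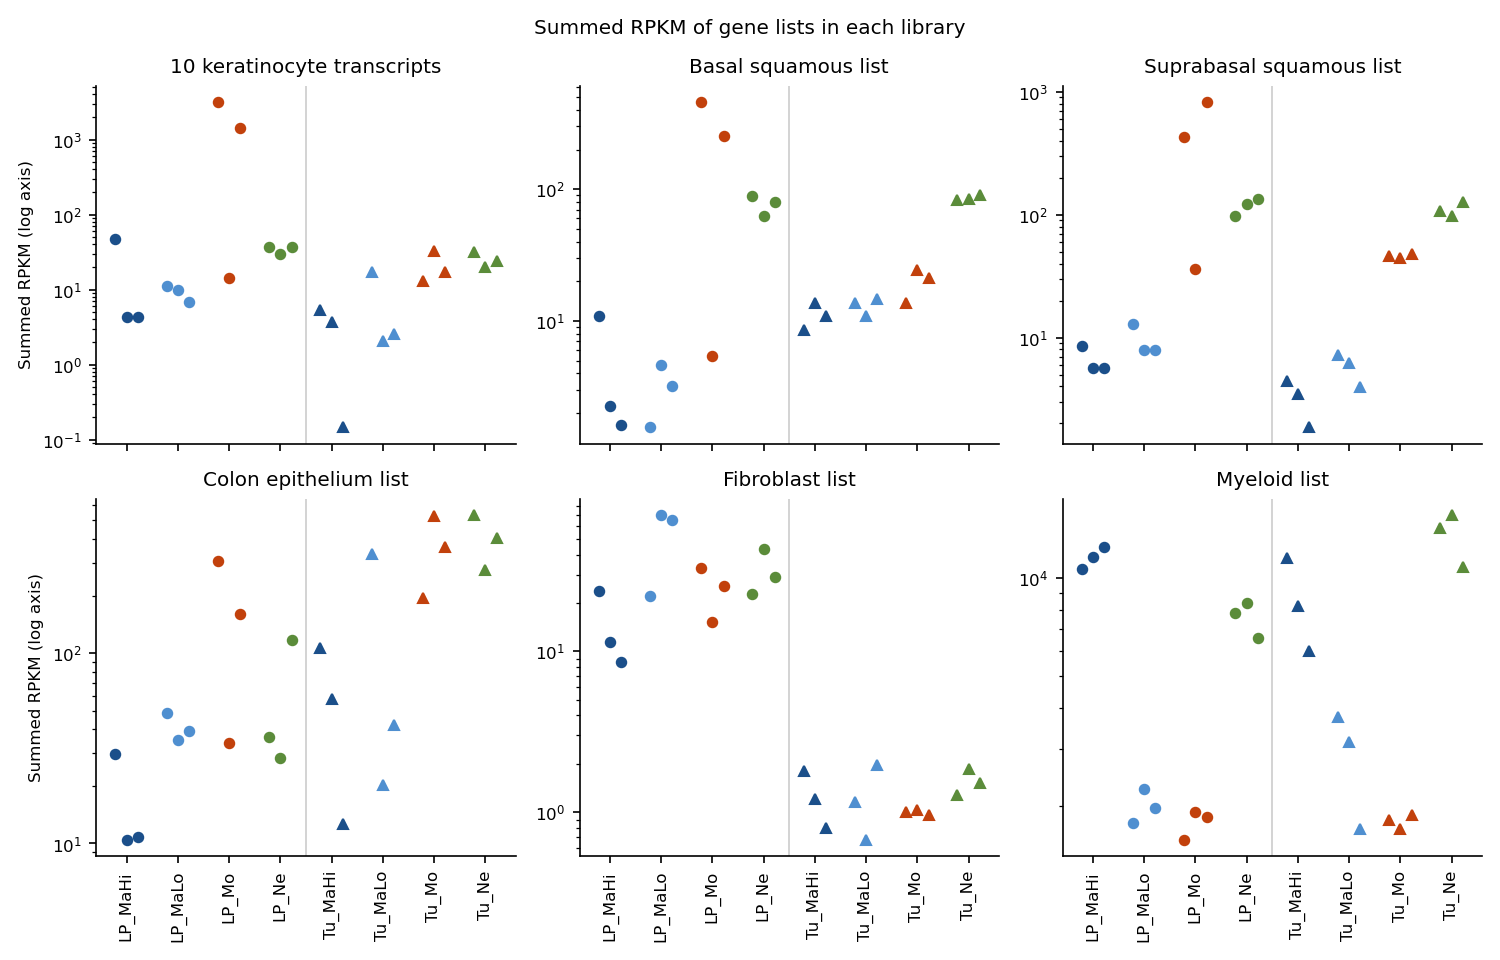
Summed RPKM (log axis) of the 10 transcripts and of 5 gene lists in each of the 24 libraries, circles for LP and triangles for tumour, 3 points per group. The squamous sums are highest in LP_Mo III and V, the colon epithelial sums reach their highest values in tumour monocytes and neutrophils, and the myeloid sums of the 3 LP monocyte libraries lie close together.

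The library with the next highest sum was LP_MaHi III, from the same pool number as LP_Mo III. Krt5 was at 8.19 RPKM (738 reads) in LP_MaHi III, against 0.0231 and 0.0332 RPKM (2 reads each) in LP_MaHi IV and V. Krt14 was at 13.9, 0.291 and 0.0413 RPKM in the same libraries. All 10 genes exceeded 3 reads in LP_MaHi III, 2 did so in LP_MaHi IV and 5 in LP_MaHi V. Trp63 had 18 reads in LP_MaHi III, which made it 1 of 3 libraries with reads of this gene, beside LP_Mo III and V. For Krt5, Krt14, Krt6a, Krt13, Krt4 and Trp63, LP_MaHi III held the highest level outside the LP monocytes.

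The proportions in LP_MaHi III were close to those of LP_Mo III for most genes. As a percentage of LP_Mo III, its level was 1.41 for Krt5, 1.15 for Krt14, 1.40 for Krt6a, 1.32 for Krt13, 2.03 for Krt4, 1.53 for Lypd3, 0.946 for Trp63 and 1.60 for Perp. Sfn, which had reads in every library, was at 4.95%, and Dsp, with 6 reads, at 0.0743%. The median over the 10 genes was 1.40%. As a percentage of LP_Mo V the same levels ran from 0.203 for Dsp to 8.03 for Krt5. Without Sfn and Dsp, both set aside after their values were seen, the other 8 genes lay between 0.946% and 2.03% of LP_Mo III and between 0.503% and 8.03% of LP_Mo V. Across 31 genes of 4 squamous and desmosome lists with at least 1000 reads in LP_Mo III, the median was 1.49%. The range ran from 0.0069% for Col17a1, with 0 reads against 3238 in LP_Mo III, to 29.8% for plakoglobin (Jup). In LP_MaLo III and LP_Ne III the levels of the 10 members were lower than in LP_MaHi III, except for Sfn and Dsp in LP_Ne III. For 3 of the 10 members (Krt5, Krt14 and Krt6a) the pool III library was the highest of its group in all 4 LP populations. LP monocytes, which led to the choice of the genes, are among these populations. The share of all genes with this order was not computed, so nothing is read from the count. Krt5 had 4 reads (0.0888 RPKM) in LP_MaLo III against 0 in LP_MaLo II and IV, and 64 reads (1.23 RPKM) in LP_Ne III against 0 and 10 reads in LP_Ne IV and V. Krt14 had 44 reads in LP_MaLo III against 20 and 0 in LP_MaLo II and IV, and 72 in LP_Ne III against 16 and 34 in LP_Ne IV and V. Each of the other 7 members was highest in another pool in at least 1 of the 4 populations, or had no reads there. Whether RNA or reads passed between libraries was not tested.

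**Figure D4:**
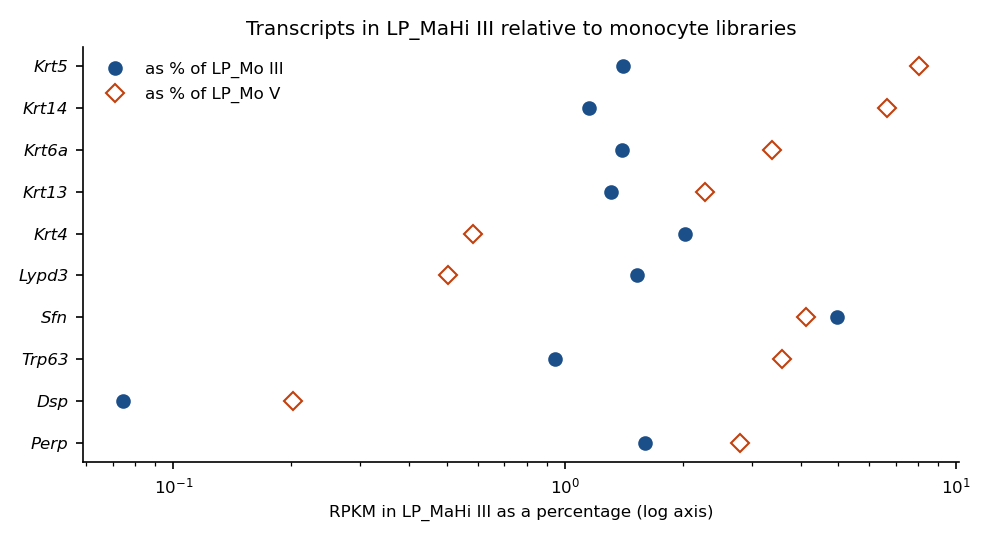
Level of each of the 10 transcripts in LP_MaHi III as a percentage (log axis) of its level in LP_Mo III (filled circles) and in LP_Mo V (open diamonds). Of the 10 genes, 8 lie between 0.946% and 2.03% of LP_Mo III, Sfn lies above and Dsp below, and the same 8 genes lie between 0.503% and 8.03% of LP_Mo V.

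The 10 genes ranged from reads in few libraries to reads in all. Over the 24 libraries, LP_Mo III and V included, more than 3 reads were found in 3 libraries for Trp63, 8 for Krt5, 8 for Lypd3, 10 for Krt4, 11 for Krt13, 13 for Krt6a, 18 for Krt14, 20 for Dsp, 21 for Perp and 24 for Sfn. In the 12 tumour libraries Krt5 had 0 to 4 reads, and the highest tumour level of Krt14 was 2.23 RPKM, in Tu_MaLo I. In the tumour monocytes, the counterparts of the LP monocytes, Krt5, Lypd3 and Trp63 had 0 reads in all 3 libraries. Perp, Dsp and Sfn, genes that columnar epithelium also expresses, accounted for most of the reads of the 10 genes in tumours.

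Lypd3 had its highest levels outside the LP monocytes in Tu_Ne V, LP_MaHi III, Tu_MaLo V and Tu_Ne II. It had 0, 6 and 9 reads in Tu_Ne I, II and V, or no level, 0.458 and 0.726 RPKM. It had 34 reads (0.483 RPKM) in Tu_MaLo V and 41 reads (0.617 RPKM) in LP_MaHi III. All other libraries outside the LP monocytes held 7 reads or fewer.

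Tumour and LP were compared within each population other than monocytes, and populations within a tissue, with limma on the log2 RPKM of 12878 genes. Only 6 of the 10 genes (Krt5, Krt14, Krt6a, Krt13, Sfn and Perp) reach a mean of 1 RPKM in a group other than LP monocytes, so the others entered through that group. In Tu_MaHi against LP_MaHi, 0 of 10 had a Benjamini-Hochberg adjusted p under 0.05 (19.5% of all genes did), and the lowest was 0.119, for Krt5, for which the 3 tumour libraries had 0 reads and the LP libraries 738, 2 and 2 reads. In Tu_MaLo against LP_MaLo, 0 of 10 passed (23.3% of all genes), with the lowest adjusted p of 0.137 for Dsp, which was at 0.893, 0.134 and 0.201 RPKM in tumour and at 0.116 and 0.0127 RPKM in LP_MaLo II and IV, with 0 reads in LP_MaLo III. In Tu_Ne against LP_Ne, 0 of 10 passed (32.2% of all genes), with the lowest adjusted p of 0.0940 for Lypd3.

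Within a tissue the result was the same for the comparisons planned. Between MHCIIlow and MHCIIhi macrophages 0 of 10 passed in LP (7.70% of all genes) and 0 of 10 in tumours (1.13% of all genes), with lowest adjusted p values of 0.294 and 0.691 by limma. Between tumour neutrophils and tumour monocytes 0 of 10 passed (58.1% of all genes), with 0.0612 as the lowest adjusted p in limma, again for Lypd3. Lypd3 had 0 reads in all tumour monocytes and LP neutrophils, so its fitted difference depends on the prior in the deposited values and is not given. At an unadjusted p under 0.05, the 6 comparisons held 1, 1, 1, 0, 0 and 1 of the 10 genes in the order given, and limma's voom on reads recovered from the deposited values also called 0. The standard errors of the keratins were between 2.39 and 3.25 on the log2 scale for these differences. The fit pooled the spread within all 8 groups, so LP monocytes, which led to the choice of the genes, entered each of these errors. The log2 SD of the keratins was 4.57 to 9.03 in LP monocytes and 0 to 6.27 in the other groups. Changes of several fold were thus not detectable in this fit. The part that 3 libraries a group had in this limit was not tested.

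**Figure D5:**
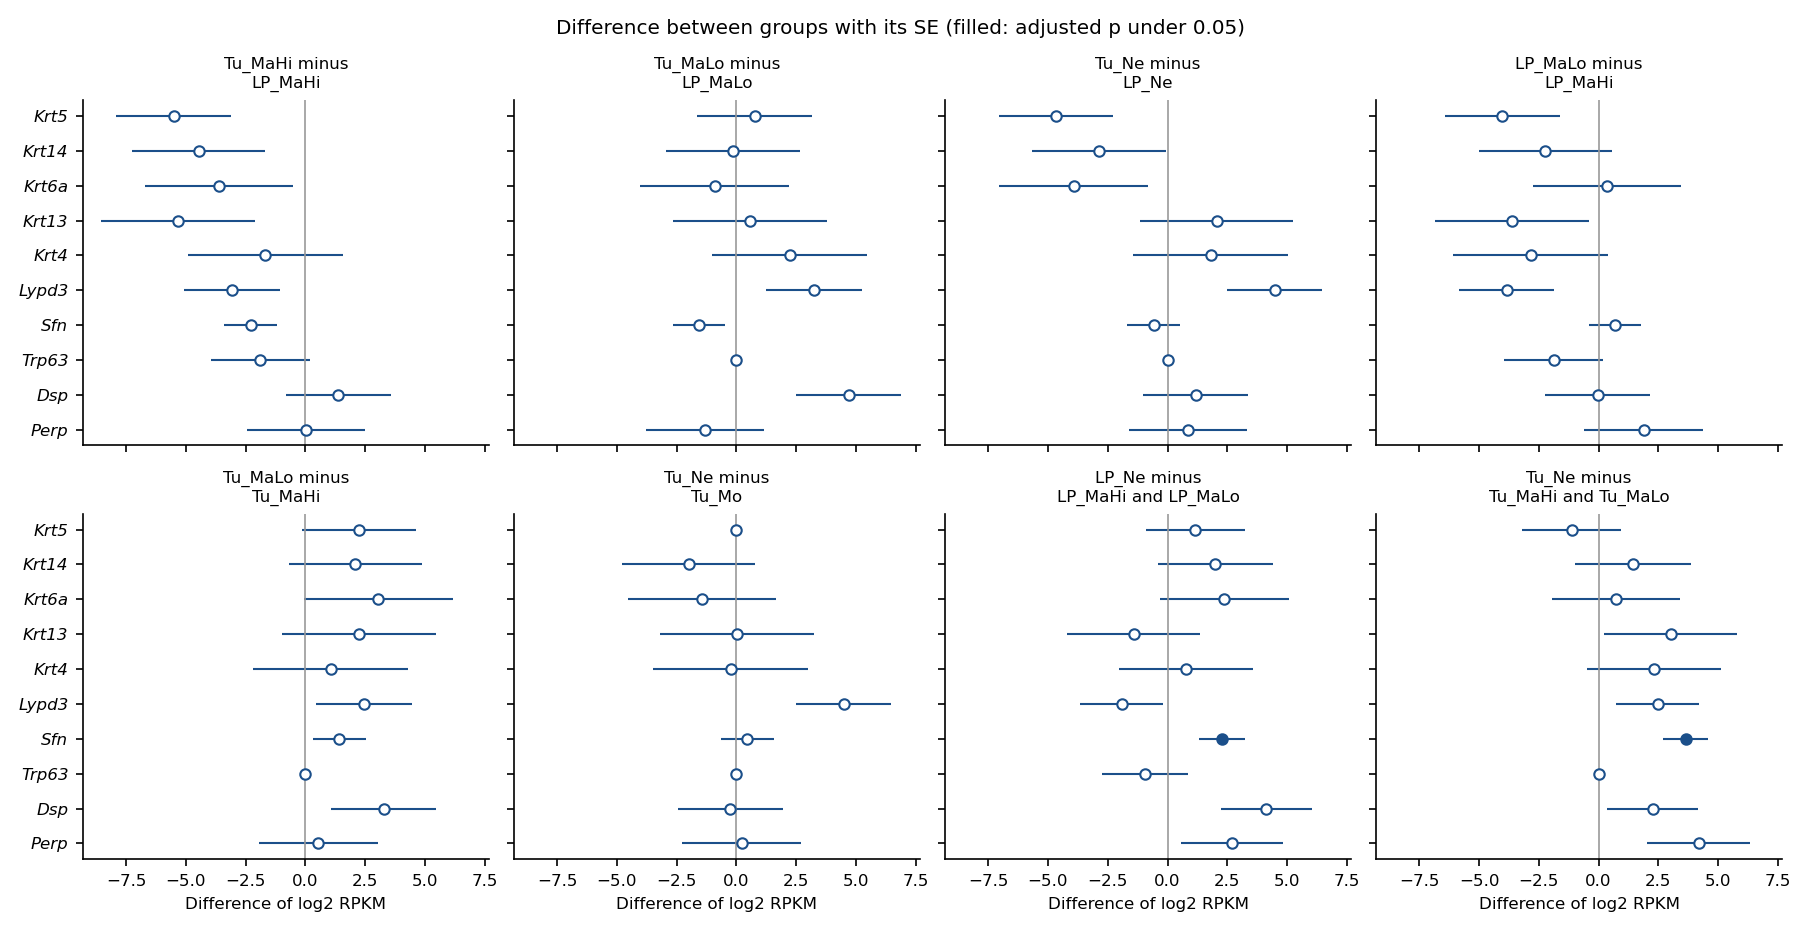
Difference of mean log2 RPKM between groups (horizontal axis) for each of the 10 transcripts in 8 comparisons, with bars of 1 SE from limma and filled symbols where the adjusted p was under 0.05. Sfn in neutrophils against macrophages, in LP and in tumours, is the filled point, and points at 0 without a bar are genes with no reads in the groups compared, while sizes that involve libraries without reads depend on the deposited prior.

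Sfn had the highest levels of the members outside the LP monocytes, in LP neutrophils. In LP it was at 28.1, 27.8 and 30.1 RPKM in neutrophils, at 7.46, 3.95 and 3.35 RPKM in MHCIIhi macrophages and at 10.3, 7.17 and 5.58 RPKM in MHCIIlow macrophages. In tumours it was at 25.0, 15.6 and 18.0 RPKM in neutrophils, at 9.95, 23.5 and 11.6 RPKM in monocytes, at 3.87, 1.92 and 0.112 RPKM in MHCIIhi macrophages and at 9.74, 1.14 and 1.42 RPKM in MHCIIlow macrophages. The neutrophil levels lay above those of all macrophages of the same tissue, and tumour neutrophils overlapped tumour monocytes. By median RPKM the groups other than LP monocytes ran from LP_Ne over Tu_Ne, Tu_Mo, LP_MaLo, LP_MaHi and Tu_MaHi to Tu_MaLo. Among neighbours in that order, LP_Ne and Tu_Ne did not overlap, and all the others did. The limma difference of Sfn between tumour and LP neutrophils was -0.58 (SE 1.10, adjusted p = 0.730).

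Neutrophils were compared with both macrophage subsets after these values were seen. Sfn was higher in LP neutrophils than in LP macrophages by 2.29 on the log2 scale (SE 0.96, adjusted p = 0.0405 by limma), and 1 of 10 members passed where 67.8% of all genes did. Leaving out 1 library at a time raised the adjusted p to between 0.0572 and 0.0901 in 7 of 9 cases: without LP_MaHi IV, LP_MaHi V, LP_MaLo III, LP_MaLo IV or any 1 of the 3 LP_Ne libraries. In tumours Sfn was higher in neutrophils by 3.64 (SE 0.96, adjusted p = 0.00202 by limma), again 1 of 10 members where 73.9% of all genes passed. Only 6 of the 10 members pass the filter without LP monocytes, and the others had few or no reads in most libraries compared. Nothing is therefore read from the share of members called. The difference in Sfn between tumour and LP was not shown to differ between neutrophils and MHCIIhi macrophages (log2 difference 1.71, SE 1.56, adjusted p = 0.490 by limma).

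Colon epithelial transcripts moved with Sfn in tumours. The colon epithelial list summed to 275 to 534 RPKM in tumour neutrophils and 194 to 529 RPKM in tumour monocytes, against 12.6 to 334 RPKM in tumour macrophages, and 12 of its 18 genes were higher in tumour neutrophils than in tumour macrophages, with 0 lower (30.3% of all genes were higher). Among tumour macrophages, Tu_MaLo I had the highest colon epithelial sum (334 RPKM) and the highest Sfn, Krt14, Perp and Dsp. In LP the list summed to 28.1 to 118 RPKM in neutrophils and 10.4 to 48.7 RPKM in macrophages, so the groups overlapped. The part of colon epithelial RNA in the Sfn difference was not tested.

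Perp and Dsp, the desmosomal members, were at 5.997 RPKM or less outside the LP monocytes. Perp was at 4.81, 3.62 and 3.16 RPKM in tumour neutrophils and 1.48, 5.997 and 3.99 RPKM in tumour monocytes, against 0 to 3.77 RPKM in tumour macrophages, where 0 stands for libraries with no reads. Its difference between tumour neutrophils and macrophages did not pass (adjusted p = 0.0848 by limma). Dsp stayed at 1.07 RPKM or less in every library outside the LP monocytes, and its difference between LP neutrophils and LP macrophages did not pass (adjusted p = 0.0610 by limma). The sizes of both depend on the deposited prior, as 2 of the 6 macrophage libraries had 0 reads in each case: on log2(RPKM + 1) they were 1.39 for Perp and 0.31 for Dsp.

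Other genes of squamous epithelium were found in neutrophil libraries at levels unlike those of the keratins. Tgm1, a transglutaminase that cross-links the cornified envelope, was at 89.8 to 126 RPKM in LP neutrophils and 93.7 to 119 RPKM in tumour neutrophils, against 1.47 to 9.76 RPKM in all macrophage libraries. It was higher in neutrophils than in macrophages by 4.41 in LP (SE 0.31, adjusted p = 1.59e-10) and 4.96 in tumours (SE 0.31, adjusted p = 1.68e-11). Lamb3, a chain of a laminin of epithelial basement membranes, was at 18.4 to 21.5 RPKM in LP neutrophils and 24.5 to 28.95 RPKM in tumour neutrophils. Tgm1 made most of the suprabasal sum of each neutrophil library, in which Krt5 had 0 to 64 reads.

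By list, 3 of 12 basal genes tested rose and 1 fell in LP neutrophils against LP macrophages (median log2 difference 2.22, against -0.21 for all genes), and 5 rose and 2 fell in tumours (1.43 against -0.48). Of 18 suprabasal genes, 3 rose in LP and 5 in tumours, with 0 lower, where the medians were 0.19 and 0.00. In those contrasts 31.1% of all genes were higher in LP neutrophils and 30.3% in tumour neutrophils. Among the suprabasal genes, only Tgm1, Tgm3, Dmkn and Sprr1a reached a mean of 1 RPKM in a group other than LP monocytes. The others, Evpl among them, and the basal genes Krt15, Col17a1, Lama3 and Aqp3 were tested only because LP monocytes counted in the filter. Most of these had few or no reads in the groups compared, so nothing is read from the medians or counts of either list. Between tumour and LP neutrophils, 1 basal gene (Krt17, adjusted p = 0.0150) and 2 desmosomal genes, the plakophilin Pkp1 (adjusted p = 0.0105) and plakoglobin, Jup (log2 difference 1.78, SE 0.55, adjusted p = 0.0178), were higher in tumours by limma. Krt17 was at 0.060 RPKM in LP_Ne III with no reads in LP_Ne IV and V, and at 0.956 to 4.63 RPKM in tumour neutrophils. In both macrophage subsets Tgm3 and Dmkn, from the suprabasal list, were lower in tumours by limma. Dmkn was at 0.343 to 1.62 RPKM in the LP macrophages and at 0.038 RPKM or less in the tumour macrophages (adjusted p = 4.91e-06 for MHCIIhi and 1.92e-05 for MHCIIlow).

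Across the 24 libraries the keratins followed one another closely. Pearson's r of log2(RPKM + 1) lay between 0.923 and 0.986 for the 10 pairs of Krt5, Krt14, Krt6a, Krt13 and Krt4, while Sfn reached 0.631 to 0.844 with the other 9 genes. These are descriptions over libraries that share 2 very high points, LP_Mo III and V, and differ in depth. The genes nearest to Krt5 among all others were Krt15 (r = 0.984), Tmprss11g (0.983), Tmprss11d (0.983), Krt6b (0.981) and Sprr2d (0.980), followed by Calml3, Dsg3, Aqp3, Tmprss11b and Spink5. Those nearest to Lypd3 were Tmprss11a (0.984), Lgals7, Tmprss11e, Cyp4f39, Ivl, Otop3, Krt16, Dsc3, Aqp3 and 4833423E24Rik (0.974). Aqp3 was in both sets.

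LP_Mo III also differed from the other LP monocytes in genes outside the squamous lists. The genes with the largest excess there over both LP_Mo IV and V were Ltf (lactotransferrin), at 475 RPKM against 2.04 and 8.47 RPKM, Calcb at 134 against 0.205 and 2.42 RPKM, and Alox15 at 32.9 RPKM against no reads. Next came Odaph, Krt20, Prss22, Mal, Cxcl5, Psca and Igfbp3. Krt20, a keratin of columnar epithelium, was at 73.3 RPKM against no reads in LP_Mo IV and 2.06 RPKM in LP_Mo V.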

How the data were processed

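Sorted cells gave 2 ng of RNA per library, amplified with a modified SMARTSeq v2 method and read from both ends over 51 bases. Per the labels, the authors aligned with STAR 2.3 to GRCm38/mm10, counted genes with featureCounts 1.5 and used edgeR. The authors deposited log2 RPKM values, including a small prior, and left out genes of low counts. Whole reads were recovered from these values: all 265112 values of 1 to 999 reads were whole within 0.02 reads, and 103 of 17301 genes, none of them members, fitted several lengths.

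Members and gene lists were chosen with earlier results of these data known. Tests used limma (version 3.58.1, under R 4.3.3), with 8 group means and trended eBayes over the 12878 genes whose mean reached 1 RPKM in a group, with Benjamini-Hochberg adjustment and a threshold of 0.05. The fit was tested on simulated data. Of the comparisons, 6 were planned and 2 (neutrophils against macrophages) were added. LP monocytes entered the fit but no tested comparison. Named were all members and, by a rule of what may be named, some of the 3 most abundant genes of each list and of the genes called in a comparison, and the genes nearest to Krt5 and Lypd3 or in greatest excess in LP_Mo III, except where said otherwise, and 1 gene of the basal list is not reported here by name. A limit of detection was set at 3 reads. The study states 3 independent experiments on pooled tissue, without saying which donor numbers belonged to which. The p values measure the spread between these pooled libraries. Labels call the pool number a donor, so libraries of 1 tissue and number are paired. Their deviations from group means had r from -0.066 to 0.255 over 29 pairs (median 0.017, duplicateCorrelation 0.048).

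The alternatives tried were an offset of 1 or 0.1 RPKM before taking logs, a filter at 5 RPKM or none, centring on library medians, only the libraries compared, the fit without LP monocytes, the pool as block, voom, and leaving out each library. After the data were seen, filters without LP monocytes were added. Tables were made in python 3.11.15 (pandas 2.3.3, numpy 2.4.6, scipy 1.17.1) and plots in matplotlib 3.10.9. Identifiers matched a symbol for 17190 of 17301 genes.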

Additional observations from a re-analysis of the deposited data

How the results depend on the processing

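With the pool as a replicate block, 0 of 10 members passed in each of the 6 planned comparisons and 1 in each of the 2 added ones, so this pairing changed no call. Of 1348 differences of single members recomputed under the alternatives, 1329 stayed on the same side of the threshold, 12 came to pass it and 7 no longer passed, while 69 changed sign without being called. Counts moved as follows. For Tu_Ne against LP_Ne the count was 0 to 1 when libraries were left out, 1 without LP_Ne IV (Krt5, adjusted p = 0.0393) and 1 without Tu_Ne I (Lypd3, adjusted p = 0.0148). For Tu_Ne against Tu_Mo it was 0 to 1, and 1 with Lypd3 when libraries were centred on their medians (adjusted p = 0.0412), without the 3 LP monocyte libraries in the fit (adjusted p = 0.0439) and without Tu_Ne I (adjusted p = 0.00710). For LP neutrophils against macrophages it was 0 to 2 when libraries were left out, and 2, with Dsp, under centring (adjusted p = 0.0438) and without the LP monocytes in the fit (adjusted p = 0.0492). For tumour neutrophils against macrophages it was 1 to 2, and 2 with centring (Perp, adjusted p = 0.0490). All adjusted p values are from limma, and the causes were not tested. Dsp and Lypd3 were tested only because LP monocytes counted in the filter: with these out of both fit and filter, chosen after seeing the data, 6 of 10 members were tested, neither gene among them, and the counts were 0 in the 6 planned comparisons and 1 in each added one. The median difference of all genes was -0.12 in Tu_Ne against LP_Ne, -0.36 in Tu_Ne against Tu_Mo, -0.21 in LP and -0.48 in tumour neutrophils against macrophages, so member differences in these are 0.12 to 0.48 larger relative to it. Reads near 0 to 10 limit Krt5, Krt13, Krt4, Lypd3 and Trp63 outside the LP monocytes, and a difference there can turn on a few reads.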

Other observations

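Fibroblast transcripts, which are not part of the squamous list, separated the tissues in all sorted populations. The fibroblast list summed to 8.63 to 70.4 RPKM in the 12 LP libraries and to 0.671 to 1.96 RPKM in the 12 tumour libraries. Of 8 genes tested, 6 were lower in tumour MHCIIhi macrophages, 7 in tumour MHCIIlow macrophages and 7 in tumour neutrophils than in their LP counterparts by limma, with 0 higher, where 19.5%, 23.3% and 32.2% of all genes were called in either direction. The collagens Col3a1 and Col1a2 and the proteoglycan genes Dcn and Lum were among the lower genes in all 3 comparisons. LP_Mo III and V, with the highest squamous sums, had fibroblast sums of 33.2 and 25.6 RPKM, within the range of the other LP libraries.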
